A study of Mus musculus with 6 samples.

Results

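The accessory proteins of the Toll-like receptors were examined in the submandibular gland, one of the major salivary glands, of female NOD mice. The 6 genes were chosen by symbol, as those that present lipopolysaccharide to its receptor (Lbp, Cd14 and Ly96), the Cd180 receptor with its partner Ly86, and the trafficking factor Unc93b1. All 6, among 19505 named genes on the array, had a probe set, and each had exactly 1. The study compared 3 glands labelled NOD.B6-Myd88-/- with 3 labelled NOD.B6-Myd88+/+, each from a separate female aged 10 weeks, with 1 Clariom S array per mouse and no technical replicates. Myd88 relays the signals of nearly all Toll-like receptors and of interleukin-1 family receptors, and NOD mice develop autoimmune infiltrates in the salivary glands and the pancreas. The labels name no allele, and the part of Myd88 that the Myd88-/- mice lack was not given in the sources used here.

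Toll-like receptors recognise microbial molecules, and several of them work only with help from other proteins. Lipopolysaccharide is lifted from bacterial membranes by Lbp, a protein of plasma, and passed to Cd14, a surface protein without a signalling domain of its own. Cd14 hands it to Ly96 (MD-2), which sits on the outer part of Tlr4 and holds the lipid in a pocket. Cd180 (RP105) resembles Tlr4 on its outer side but lacks the inner domain that recruits Myd88. It needs Ly86 (MD-1), a relative of Ly96, to reach the surface, and is known from B cells, dendritic cells and macrophages. Unc93b1 is a membrane protein of the endoplasmic reticulum that escorts the nucleic acid sensors, among them Tlr3, Tlr7 and Tlr9, to endosomes.

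All values are on the log2 scale, as the method RMA (robust multi-array averaging) gives it, a scale on which 1 unit is a 2-fold change, and the level of one gene cannot be set against that of another. The 23 background control probe sets had a median of 5.55 over all arrays, and 5.57 to 5.71 on the Myd88-/- arrays against 5.46 to 5.52 on the Myd88+/+ arrays. The span between the lowest and the highest decile was 6.83 to 7.13 log2 units on Myd88-/- and 7.10 to 7.30 on Myd88+/+ arrays. The part of these array properties in the results was not tested. The gland's own genes were bright, with Smgc, a secreted protein of this gland, at 18.78 to 19.83 over the 6 glands, and with Prol1 and Klk1 at the ceiling of 19.93 on all 6 arrays, which gives no fold for them. Myd88+/+ replicate 3 stood apart in one gland gene, Dcpp3, one of a family of near-identical copies that can share probes, with 14.91 against 4.65 to 6.59 in the other 5 glands. It was also highest in several leukocyte markers. The T cell marker Cd3e read 8.26 there against 4.74 to 5.85 in the other 5 glands, and the myeloid marker Lyz2 12.59 against 9.17 to 10.87. Not every marker was so, as Mertk was highest in Myd88+/+ replicate 2. The probe set of Myd88 itself averaged 7.20 ± 0.35 in the Myd88-/- group, against 7.73 ± 0.18 in the Myd88+/+ group (SD, n = 3 each), without overlap and at a limma adjusted p of 0.462. Whether it lies in the missing part of the gene is not known here, so it does not check the labels.

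Among the accessory genes, the Cd180 pair differed most between the genotypes and Ly96 least. Cd180 had a 2.91-fold and Ly86 a 3.31-fold lower mean in Myd88-/- than in Myd88+/+ glands, Unc93b1 a 1.88-fold and Lbp a 1.69-fold lower mean. In these 4 genes every Myd88-/- gland lay below every Myd88+/+ gland, whereas the groups overlapped for Cd14 and Ly96. None of the 6 differences passed limma's test after Benjamini-Hochberg adjustment over all 22206 probe sets (adjusted p = 0.321 to 0.929), as was so for every probe set on the array, with 0% called. The 3 glands per group limit the precision of each value, and for a single gene the two-sided exact permutation test cannot go below 0.1. As the glands are whole tissue, fewer cells of a type and less RNA per cell cannot be told apart.

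**Figure D1:**
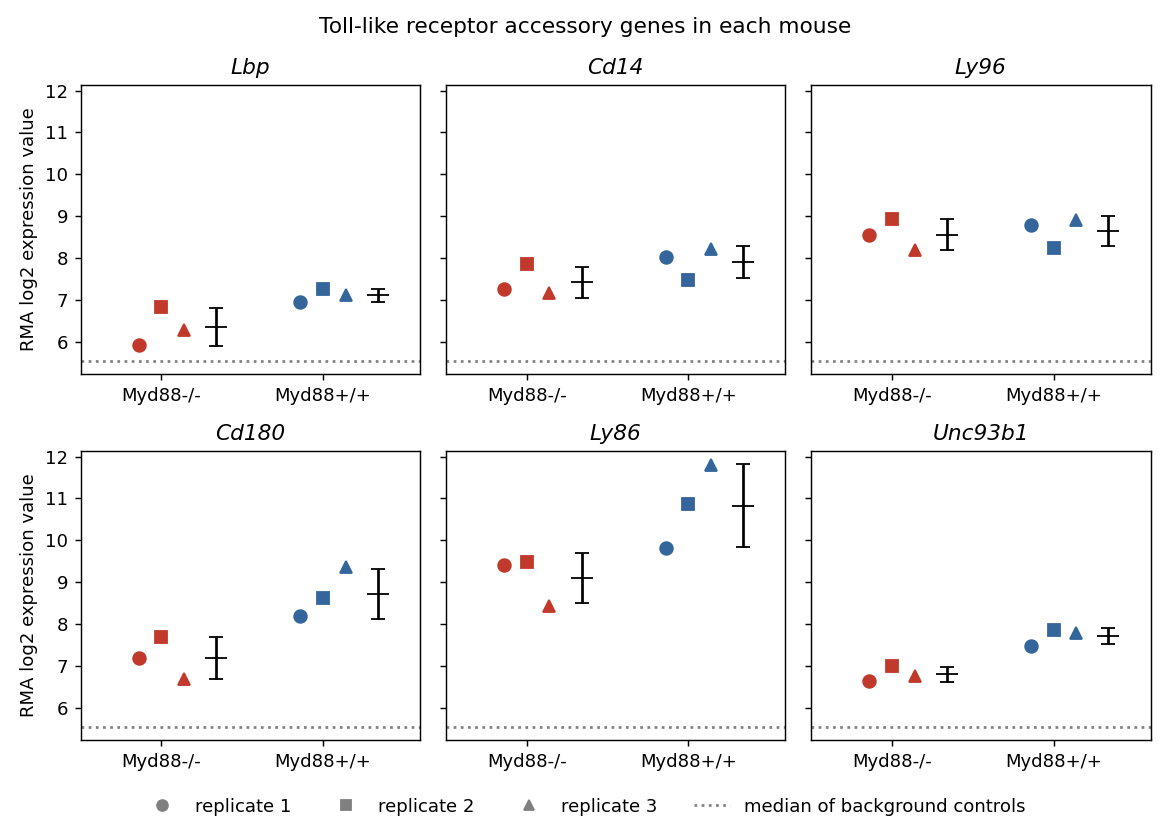
RMA log2 expression value (vertical axis) of the 6 accessory genes in each gland, Myd88-/- in red and Myd88+/+ in blue, with 1 symbol per mouse, the mean with its SD beside the points (n = 3 each) and the median of the background controls, 5.55, as a dotted line. The groups stand apart in Lbp, Cd180, Ly86 and Unc93b1 and overlap in Cd14 and Ly96.

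By limma's unadjusted p under 0.05, 4 of the 6 genes were lower and 0 higher in Myd88-/- glands, where 5.55% of all probe sets were lower and 4.5% higher by that criterion. The 4 were Unc93b1, Cd180, Ly86 and Lbp. The same 4 genes were lower without overlap between the groups, against 7.25% of all probe sets. The median log2 difference of the 6 genes was −0.84, against 0.02 over all probe sets and −0.07 over the brighter 50% of them. All 6 differences were below 0, as were 47.5% of all probe sets. All 6 genes read above the background control median on every array. The genes were named with earlier results of these data known, so these counts describe the set and do not test it.

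The Cd180 complex came first by size. Cd180 read 7.18, 7.68 and 6.70 in Myd88-/- replicates 1, 2 and 3, against 8.19, 8.62 and 9.37 in Myd88+/+ replicates 1, 2 and 3. The groups were 0.51 log2 units apart at their nearest point, between Myd88-/- replicate 2 and Myd88+/+ replicate 1. The mean log2 difference was −1.54, with a standard error (SE) of 0.33 and a 95% confidence interval from −2.29 to −0.79 (limma adjusted p = 0.323, two-sided exact permutation p = 0.1).

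Ly86, whose product carries Cd180 to the surface, read 9.42, 9.47 and 8.42 in Myd88-/- replicates 1, 2 and 3, against 9.82, 10.88 and 11.80 in Myd88+/+ replicates 1, 2 and 3. Myd88+/+ replicate 1 lay 0.35 above the highest Myd88-/- gland, and Myd88+/+ replicate 3 was the highest of all. The mean difference was −1.73 with an SE of 0.46 and an interval from −2.77 to −0.68 (limma adjusted p = 0.368, exact permutation p = 0.1). The spread within Myd88+/+ glands, 1.98 log2 units, exceeded the difference between the group means. Both genes of the complex had the same order of glands in Myd88+/+ and were lowest in Myd88-/- replicate 3. The difference of Ly86 was larger than that of Cd180 by 0.19 (two-sided exact permutation p = 0.6).

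Promoter sequences of 2 of the 6 genes, Ly86 and Cd180, were taken from the RefSeq promoter table (assembly GRCm38.p6). They are shown because these partners had the largest differences and lie on the same chromosome. Any promoter of Cd14 was left out by its chromosome, so whether one was there is not given here. Each line gives the 250 bases before the annotated transcript start on the plus strand, and for Ly86 also the first 9 transcribed bases. Capitals mark a match to a searched motif.
Ly86, chr13:37345095-37345353: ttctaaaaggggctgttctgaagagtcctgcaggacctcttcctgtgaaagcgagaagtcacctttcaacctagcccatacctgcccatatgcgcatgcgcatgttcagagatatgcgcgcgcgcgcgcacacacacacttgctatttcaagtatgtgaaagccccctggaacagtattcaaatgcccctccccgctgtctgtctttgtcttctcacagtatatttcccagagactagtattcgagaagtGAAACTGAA
Cd180, chr13:102693297-102693546: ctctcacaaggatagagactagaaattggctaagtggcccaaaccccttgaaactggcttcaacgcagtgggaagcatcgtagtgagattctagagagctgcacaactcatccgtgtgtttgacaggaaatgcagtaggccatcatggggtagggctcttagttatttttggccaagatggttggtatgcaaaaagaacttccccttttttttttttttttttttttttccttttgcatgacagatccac

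Both strands of the 300 bases around each start were searched for GAGGAA, a core of sites for the myeloid and B cell factor PU.1, for GAAANNGAA, part of the interferon-stimulated element, for TTCNNNGAA, the gamma-activated site, and for GGGANTTCC, a form of the NF-kB site. The Ly86 window held 1 match, GAAACTGAA at the first transcribed base on the plus strand, and the Cd180 windows, from 2 overlapping starts of which the upstream one is printed, held none. Of the 32851 promoters of that length in the table, 28.3% held GAGGAA, 8.56% GAAANNGAA, 8.3% TTCNNNGAA and 1.68% GGGANTTCC. No searched motif overlapped another in these windows. The matches describe the letters in these windows and not the binding of a factor.

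Unc93b1 had the smallest spread of the 6 genes relative to its difference. It read 6.64, 7.01 and 6.75 in Myd88-/- replicates 1, 2 and 3, against 7.49, 7.86 and 7.79 in Myd88+/+ replicates 1, 2 and 3. The range within a group was 0.37 in Myd88-/- and 0.38 in Myd88+/+ glands, and the gap between the groups was 0.48. The mean difference was −0.91 with an SE of 0.18 and an interval from −1.33 to −0.50 (limma adjusted p = 0.321, exact permutation p = 0.1). Leaving out 1 mouse at a time gave −1.03 to −0.83. The Myd88-/- mean of 6.80 lay above the background control median but just below the brightest background control probe set, which averaged 6.83, so the size of the difference is uncertain.

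The nucleic acid sensors that Unc93b1 escorts had smaller differences, all with overlapping groups. Tlr3 averaged 11.87 ± 0.34 in the Myd88-/- group, against 11.95 ± 0.10 in the Myd88+/+ group (SD, n = 3 each). Tlr7 averaged 7.35 ± 0.09 in the Myd88-/- group, against 7.76 ± 0.76 in the Myd88+/+ group (SD, n = 3 each), where replicate 3 was highest at 8.49. Tlr9 averaged 5.83 ± 0.33 in the Myd88-/- group, against 6.04 ± 0.20 in the Myd88+/+ group (SD, n = 3 each). Their log2 differences were −0.08, −0.41 and −0.20, and whether they differ from that of Unc93b1 was not tested.

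Lbp, the first of the genes that meet lipopolysaccharide in turn, read 5.93, 6.84 and 6.28 in Myd88-/- replicates 1, 2 and 3, against 6.96, 7.26 and 7.12 in Myd88+/+ replicates 1, 2 and 3. The groups did not overlap, but Myd88-/- replicate 2 came within 0.12 of the lowest Myd88+/+ gland. The mean difference was −0.76 with an SE of 0.24 and an interval from −1.30 to −0.22 (limma adjusted p = 0.395, exact permutation p = 0.1). As for Unc93b1, the Myd88-/- mean, here 6.35, lay between the median and the brightest of the background control probe sets.

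Cd14, the co-receptor that takes lipopolysaccharide from Lbp, read 7.25, 7.85 and 7.16 in Myd88-/- replicates 1, 2 and 3, against 8.02, 7.48 and 8.22 in Myd88+/+ replicates 1, 2 and 3. The groups overlapped, since Myd88-/- replicate 2 lay above Myd88+/+ replicate 2. The mean difference of −0.49 had an SE of 0.25 and an interval from −1.06 to 0.09 (limma adjusted p = 0.562, exact permutation p = 0.2).

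Ly96, the lipid-binding partner of Tlr4, read 8.56, 8.92 and 8.19 in Myd88-/- replicates 1, 2 and 3, against 8.79, 8.25 and 8.90 in Myd88+/+ replicates 1, 2 and 3. The highest of the 6 glands was a Myd88-/- gland, and the groups overlapped through most of their range. The mean difference of −0.09 had an SE of 0.25 and an interval from −0.64 to 0.46 (limma adjusted p = 0.929, exact permutation p = 0.8). Its sign turned with quantile normalization (0.046), with cyclic loess (0.0078), without Myd88-/- replicate 3 (0.092) and without Myd88+/+ replicate 3 (0.034). Tlr4 itself averaged 9.89 ± 0.17 in the Myd88-/- group, against 9.84 ± 0.12 in the Myd88+/+ group (SD, n = 3 each), a difference of 0.04 with an interval from −0.34 to 0.43.

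**Figure D2:**
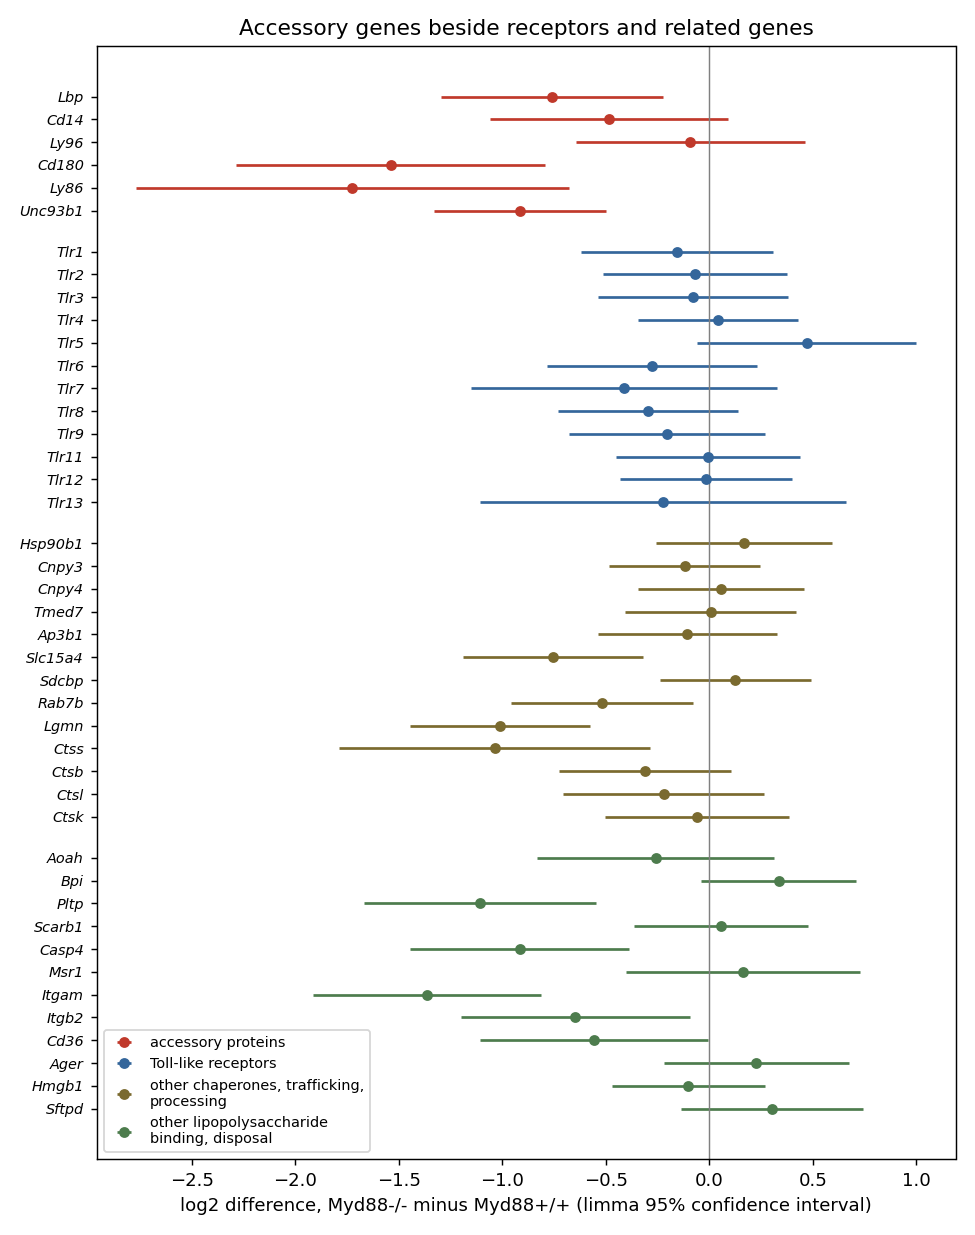
Log2 difference, Myd88-/- minus Myd88+/+ (horizontal axis), with limma's 95% confidence interval for the 6 accessory genes, the 12 Toll-like receptors and 2 lists of related genes (3 glands per group). Cd180 (−1.54) and Ly86 (−1.73) lie farthest left, while the interval of each Toll-like receptor spans 0.

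The 6 genes were compared with each other in 15 pairs by the difference of their values within each array, which shows unequal change only. The difference of Ly96 was smaller than that of Cd180 by 1.45, of Ly86 by 1.63, of Unc93b1 by 0.82, of Lbp by 0.67 and of Cd14 by 0.39 log2 units. In each of these 5 pairs a two-sided exact permutation test gave its smallest possible p of 0.1, and 0.214 after adjustment over the 15 pairs. The same p was reached by Cd180 against Cd14, which differed by 1.05, and by Cd180 against Unc93b1, which differed by 0.63. In the other 8 pairs the exact permutation p was 0.2 to 0.6. No pair could pass, since a smallest p of 0.1 lies above the threshold of 0.05.

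Within the genotypes, the same glands were often at the extremes. Myd88-/- replicate 2 had the highest value of its group in 6 of 6 genes, and Myd88-/- replicate 3 the lowest in 4. Among Myd88+/+ glands replicate 3 was highest in 4 genes and replicate 2 in the other 2, Lbp and Unc93b1. Myd88-/- replicate 2 also had the widest signal span of its group, 7.13 log2 units, against 6.95 and 6.83 in Myd88-/- replicates 1 and 3, and the part of the span in these values was not tested. Without Myd88-/- replicate 2 the difference of Cd14 was −0.70 and that of Lbp −1.003, and 5 of the 6 genes had no overlap, as was also so without Myd88+/+ replicate 2. With 1 mouse fewer, the lower probe sets without overlap also numbered more, at 3450 and 2571 of 22206 without these mice, against 1611 with all 6. Myd88+/+ replicate 3 was the gland that stood apart in Dcpp3 and was highest in several leukocyte markers. Without it the differences were −1.24 for Ly86, −1.22 for Cd180, −0.88 for Unc93b1, −0.76 for Lbp and −0.33 for Cd14.

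**Figure D3:**
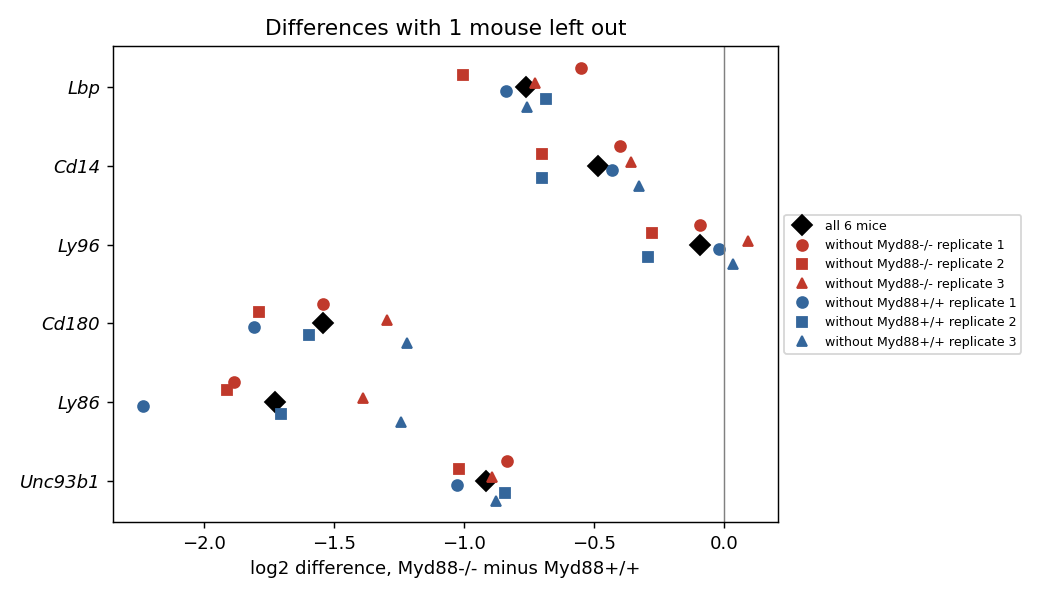
Log2 difference, Myd88-/- minus Myd88+/+ (horizontal axis), of the 6 accessory genes with all 6 glands (black diamonds) and with 1 gland left out (red, a Myd88-/- gland; blue, a Myd88+/+ gland; the symbol gives the replicate). Ly86 runs from −2.23 to −1.24 and Cd180 from −1.81 to −1.22, whereas Ly96 runs from −0.29 to 0.09 and crosses 0.

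Markers of macrophages and monocytes read lower beside the Cd180 complex. Of the 15 measured markers, 15 were lower in Myd88-/- glands, 12 at an unadjusted p under 0.05 and 0 after adjustment, with a median log2 difference of −0.99. Their score, the mean over the markers of the log2 value about its mean over the 6 arrays, ran from −0.75 to −0.36 in Myd88-/- and from −0.01 to 1.09 in Myd88+/+ glands. Like Ly86 and Cd180, the score was lowest in Myd88-/- replicate 3 and highest in Myd88+/+ replicate 3. This was so for Cd14 too, at 7.16 and 8.22, although its groups overlapped. Among Myd88-/- glands the score was highest in replicate 1, at −0.36, whereas Ly86, Cd180 and Cd14 were highest in replicate 2. Csf1r, the growth factor receptor of macrophages, averaged 8.23 ± 0.24 in the Myd88-/- group, against 9.46 ± 0.46 in the Myd88+/+ group (SD, n = 3 each). Lyz2, the lysozyme of myeloid cells, averaged 9.30 ± 0.11 in the Myd88-/- group, against 11.21 ± 1.25 in the Myd88+/+ group (SD, n = 3 each). Mrc1, the mannose receptor, averaged 9.14 ± 0.38 in the Myd88-/- group, against 10.06 ± 0.76 in the Myd88+/+ group (SD, n = 3 each), with overlapping groups. Of the 15 markers, 8 were lower without overlap, and Mertk, a receptor for dying cells, differed least, at −0.03.

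For B cells, dendritic cells, T cells and neutrophils the list scores overlapped between the genotypes. The score of endothelial and fibroblast markers did not, as given below. Of 9 measured B cell markers 7 were lower and 2 higher, 0 at an unadjusted p under 0.05, and only 3 averaged above the background control median, with scores from −0.13 to 0.02 in Myd88-/- and −0.27 to 0.43 in Myd88+/+ glands. Ms4a1, which encodes CD20, averaged 5.58 ± 0.08 in the Myd88-/- group, against 5.53 ± 0.52 in the Myd88+/+ group (SD, n = 3 each), near background. Of 10 neutrophil markers 2 averaged above that median, and the list's median difference was 0.06. S100a9, Cxcr2 and Ltf had differences of 0.06, 0.05 and −0.75 with overlapping groups, and Ltf was highest in Myd88+/+ replicate 3 at 7.18. Of 9 dendritic cell markers 6 were lower and 3 higher, 3 of them lower at an unadjusted p under 0.05 and 2 without overlap, and 3 averaged above the background control median. Of these, Bst2, also known from interferon responses, averaged 7.17 ± 0.06 in the Myd88-/- group, against 8.10 ± 0.55 in the Myd88+/+ group (SD, n = 3 each), without overlap, while Ccr7 and Siglech had differences of −0.16 and 0.34 with overlapping groups. Dendritic cell markers had scores from −0.23 to −0.04 in Myd88-/- and −0.20 to 0.37 in Myd88+/+ glands, and T cell markers from −0.46 to −0.16 in Myd88-/- and −0.23 to 0.87 in Myd88+/+ glands. Of 8 measured T cell markers 7 were lower and 1 higher, 0 at an unadjusted p under 0.05 and 1 without overlap, with a median of −0.39. Only 2 averaged above the background control median. Cd4, Cd3e and Cd3g had differences of −0.58, −1.44 and −1.14, of which only Cd3g was without overlap. For Cd3e and Cd3g the Myd88-/- means lay under that median, and Myd88+/+ replicate 3 was highest at 8.26 and 7.58. The part of any cell type in the differences of the accessory genes was not tested.

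**Figure D4:**
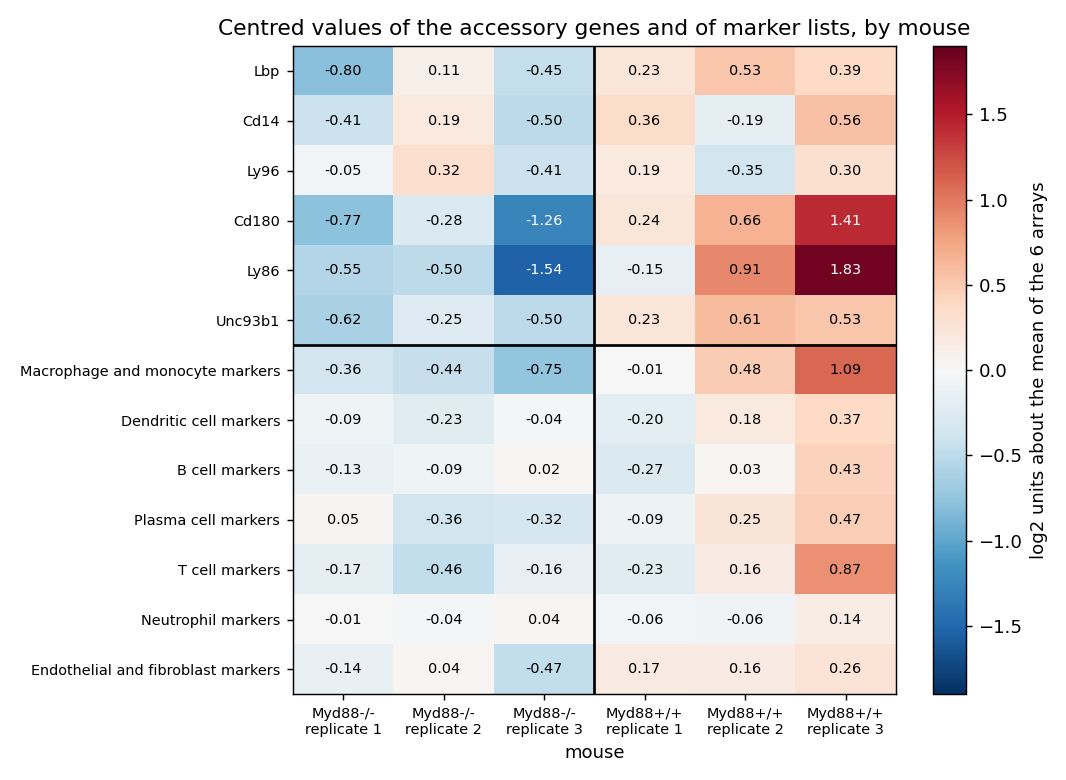
Centred log2 values (colour and printed numbers, in log2 units about the mean of the 6 arrays) of the 6 accessory genes and of 7 marker list scores, with 1 column per gland and Myd88-/- glands at the left. Ly86, Cd180 and Cd14 have their highest values, 1.83, 1.41 and 0.56, in Myd88+/+ replicate 3. Each of the 7 scores is also highest in that gland, from 0.14 for neutrophils to 0.87 for T cells and 1.09 for macrophages and monocytes.

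The accessory genes were also read relative to the macrophage and monocyte score of the same gland, a comparison chosen after the data were seen. The score itself differed by −1.03 between the genotypes. That difference is subtracted from the difference of every gene, so the values and p-values below carry the change of the score too. Ly96 itself differed by −0.09, with overlapping groups (two-sided exact permutation p = 0.8). On this relative scale Ly96 was 0.94 log2 units higher in Myd88-/- than in Myd88+/+ glands and Cd180 was 0.51 lower, both without overlap (two-sided exact permutation p = 0.1 each, 0.3 after adjustment over the 6 genes). Ly86 was 0.69 lower with overlapping groups (exact permutation p = 0.2). For Cd14, Lbp and Unc93b1 the relative differences were 0.55, 0.27 and 0.12, with exact permutation p of 0.3, 0.5 and 0.6.

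**Figure D5:**
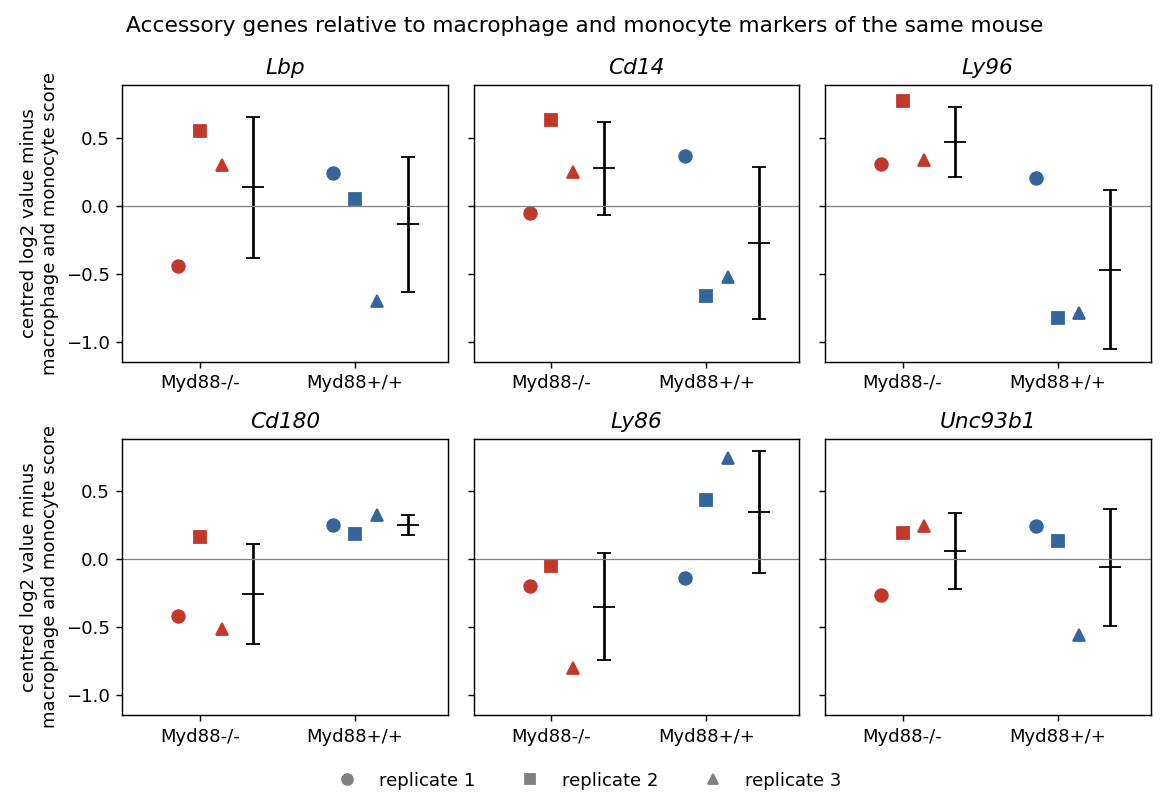
Centred log2 value of each accessory gene minus the macrophage and monocyte score of the same gland (vertical axis), by genotype, with 1 symbol per mouse and the mean with its SD (n = 3 each). Ly96 lies higher and Cd180 lower in Myd88-/- than in Myd88+/+ glands without overlap, and the groups overlap in the other 4 genes. The score's own difference between the genotypes, −1.03, enters the values of every gene.

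The receptors were set beside their accessory proteins. Of 12 Toll-like receptors 10 were lower and 2 higher in Myd88-/- glands, with 0 at an unadjusted p under 0.05, 0 without overlap and a median log2 difference of −0.12. Tlr8, a relative of Tlr7, had −0.30 and Tlr5, the flagellin receptor, had 0.47, and both group means of each lay under the background control median. Tlr6, which pairs with Tlr2 for bacterial lipopeptides, had −0.28.

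Among 13 other chaperones, trafficking and processing factors of Toll-like receptors, 9 were lower and 4 higher, 4 of them lower at an unadjusted p under 0.05 and 0 after adjustment, with a median of −0.12. The 4 did not overlap between the genotypes, whereas the other lysosomal proteases Ctsb, Ctsl and Ctsk had differences of −0.31, −0.22 and −0.06 with overlapping groups. Lgmn, a protease that trims Tlr9, averaged 9.78 ± 0.18 in the Myd88-/- group, against 10.80 ± 0.26 in the Myd88+/+ group (SD, n = 3 each), a difference of −1.01. Ctss, cathepsin S, averaged 8.66 ± 0.17 in the Myd88-/- group, against 9.70 ± 0.76 in the Myd88+/+ group (SD, n = 3 each), a difference of −1.04. Slc15a4, a lysosomal transporter that Tlr7 and Tlr9 signalling needs, had −0.76, and Rab7b, a small GTPase of late endosomes, had −0.52. Of the helpers that fold most Toll-like receptors, Hsp90b1 (gp96) had 0.17 with an interval from −0.26 to 0.59 and its cofactor Cnpy3 −0.12 with an interval from −0.49 to 0.25. Whether these values differ from that of Unc93b1 was not tested.

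Among 12 other genes that bind or dispose of lipopolysaccharide, 7 were lower and 5 higher, 5 of them lower at an unadjusted p under 0.05 and 0 after adjustment, with a median of −0.18. Pltp, which moves lipopolysaccharide to lipoproteins and is a relative of Lbp, averaged 6.84 ± 0.26 in the Myd88-/- group, against 7.95 ± 0.45 in the Myd88+/+ group (SD, n = 3 each), a difference of −1.11 without overlap. Casp4 (caspase-11), which binds lipopolysaccharide inside the cell, had −0.92. Its Myd88-/- mean, 6.63, lay below the brightest background control probe set, at 6.83, so the size is uncertain. The integrin chain Itgam had −1.36, where the Myd88-/- glands averaged 5.04, below the median of the background controls. Its partner chain Itgb2 had −0.65, with both group means below the background control median.

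The kinases and adaptors by which Cd180 is known to signal in B cells read lower in mean where measured. Of 6 measured genes 6 were lower, 1 at an unadjusted p under 0.05 and 0 after adjustment, with a median of −0.37. Prkcb, a protein kinase C, averaged 7.40 ± 0.07 in the Myd88-/- group, against 8.31 ± 0.61 in the Myd88+/+ group (SD, n = 3 each), without overlap. Plcg2, Syk and Vav1 had differences of −0.52, −0.51 and −0.22.

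For each accessory gene the 3 most alike genes were found among 16977 named genes, by the root mean square difference between the 2 profiles over the 6 arrays, each about its own mean. For Ly86 they were Cd53, a tetraspanin of leukocytes, at 0.23 log2 units, Spi1, which encodes PU.1, at 0.24, and H2-Aa, a chain of MHC class II, at 0.25. For Cd180 they were Naaa, a lysosomal hydrolase, at 0.16, Ifitm3, an interferon-induced membrane protein, at 0.19, and the lipocalin Lcn2 at 0.23. Spi1 averaged 8.15 in Myd88-/- and 9.94 in Myd88+/+ glands, and Naaa averaged 6.96 in Myd88-/- and 8.43 in Myd88+/+ glands. For Unc93b1 they were Fxyd3, a regulator of the sodium pump, at 0.09, the matrix protein gene Fbln1 at 0.11 and the adaptor gene Traf4 at 0.13. For Lbp they were Plxdc2 at 0.10, Klra7 at 0.11 and Ppp1r18 at 0.11, where Klra7 belongs to a family of close copies that can share probes. Ppp1r18 averaged 5.49 in Myd88-/- glands, under the background control median of 5.55. The genes most alike to Cd14 were Akr1e1 at 0.07, Coro2a at 0.09 and Rnf181 at 0.09. Those most alike to Ly96 were Taok1 at 0.05, Vkorc1 at 0.06 and Mrpl34 at 0.07. The likeness is a description over 6 arrays that share their genotype groups.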

How the data were processed

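Total RNA of 6 submandibular glands was copied into labelled single-stranded cDNA and hybridised to Clariom S arrays, per the labels' protocols. As deposited, the values are on a log2 scale from RMA, which corrects background, normalizes between arrays and summarises probes, and which the authors ran with the Transcriptome Analysis Console, as the labels and the submitters' processing notes state. Its version, the RMA variant and the annotation build were not given in the sources used here. This method compresses differences near background. Sizes are uncertain too for other genes with a group mean under 6.83, the mean of the brightest background control probe set.

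Of 28846 probe sets, 6640 controls were left out. Of the 22206 tested, 19572 had 1 gene symbol, 0 several, and 2634 were unnamed here. All 19572 matched RefSeq (GRCm38.p6) by Entrez identifier, with 0 symbols changed. For each gene the probe set with the highest mean was used. None of the 6 genes lies on the chromosome of Myd88 (0 of 6). The same was not looked at for the marker genes, among them chemokine receptors, whose differences enter the list scores.

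The genotypes, from the sample titles, were compared by limma 3.58.1 (lmFit and eBayes, R 4.3.3) without covariates, each difference being Myd88-/- minus Myd88+/+. P-values were adjusted by Benjamini and Hochberg's method across the 22206 probe sets, with a threshold of 0.05. The code was tested on simulated data. Members of a pair were compared by a two-sided exact permutation test. Array number limits the precision.

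The genes and lists were chosen with earlier results of these data known. Named were the 6 genes, Myd88, Tlr3, Tlr4, Tlr7 and Tlr9, up to 4 genes per pathway list with the smallest p, up to 3 per marker list with the highest mean, and 3 most alike genes each. Of the marker genes picked in this way, Slc12a2, Fcer2a, Blk, Prh1 and Ccl21a are not described above, and each had overlapping groups. Hsp90b1, Cnpy3, Smgc, Dcpp3, Ctsb, Ctsl, Ctsk, Mertk and Myh4 were added after their values were seen. Genes of the lists without a named probe set were not analysed here. Protein sequences were not used here.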

Additional observations from a re-analysis of the deposited data

How the results depend on the processing

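Over the 14 alternatives run for each, the differences of Cd14, Cd180, Ly86, Lbp and Unc93b1 kept their sign and stayed short of limma's threshold, at adjusted p between 0.164 and 0.817. Leaving out each mouse gave −0.70 to −0.33 for Cd14, −1.81 to −1.22 for Cd180, −2.23 to −1.24 for Ly86, −1.003 to −0.55 for Lbp and −1.03 to −0.83 for Unc93b1. Ly96 turned to 0.046 with quantile normalization and 0.0078 with cyclic loess, and ran from −0.29 to 0.092 without 1 mouse, and the cause was not tested. The difference between Cd14 and Lbp, 0.27, ran from −0.015 to 0.43 without 1 mouse and turned only without Myd88+/+ replicate 2. The other 14 pairs kept their sign in the 9 alternatives that were run for each pair. The counts of accessory genes lower at an unadjusted p under 0.05, and lower without overlap, were 4 or 5 of 6 throughout, while those of all 22206 probe sets ran from 837 to 1625 and from 1507 to 3450 in the alternatives that kept them all. The mice were not treated as paired by the titles' replicate numbers. Same-numbered glands' deviations correlated at −0.11, −0.15 and −0.02, which shows no shared effect but cannot exclude a pairing. With the replicate number as a block the differences are the same by construction, 4 genes stayed lower at an unadjusted p under 0.05, and limma's adjusted p ran from 0.518 for Cd180 and Unc93b1 to 0.952 for Ly96. That block left 0 probe sets called.

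Over all probe sets, limma called 0 at an adjusted p under 0.05 (1233 lower and 999 higher at an unadjusted p under 0.05). It called 2 with median centring, Emp3 and Rnase1, 4 with an intensity trend and robust variances, Emp3, Rnase1, Ly6c1 and Tmem176a, and 0 to 5 without 1 mouse, each lower and none an accessory gene. The 5 came without Myd88+/+ replicate 1, and 1 each without Myd88-/- replicate 2 and Myd88+/+ replicate 3. These names were taken after their values were seen. Averaging probe sets per gene was not run, since each of the 6 genes has 1. Of the 6 genes Lbp lies nearest to background, so the size of its difference is uncertain.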

Other observations

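Of 15 measured adaptors and kinases that act after Toll-like receptors, 11 were lower and 4 higher in Myd88-/- glands, 3 of them lower at an unadjusted p under 0.05 and 0 after limma's adjustment, with a median log2 difference of −0.11. Besides Myd88, at −0.53, these were Tab1 and Tab2, which link Traf6 to the kinase Map3k7, with differences of −0.78 and −0.51. Tab1 averaged 7.37 ± 0.60 in the Myd88-/- group, against 8.15 ± 0.17 in the Myd88+/+ group (SD, n = 3 each), and Tab2 averaged 11.46 ± 0.17 in the Myd88-/- group, against 11.98 ± 0.11 in the Myd88+/+ group (SD, n = 3 each), both without overlap. Traf6 had −0.29 with overlapping groups.

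Markers of endothelium and fibroblasts were lower in 7 of 8 measured genes, with scores from −0.47 to 0.04 in Myd88-/- and from 0.16 to 0.26 in Myd88+/+ glands. These scores did not overlap, as was so for macrophages and monocytes. Of the 8 genes, 3 were lower at an unadjusted p under 0.05, 0 after adjustment, and 2 were lower without overlap. The median log2 difference was −0.39. Decorin (Dcn) and lumican (Lum), proteoglycans of the matrix, had differences of −0.46 and −0.49 with overlapping groups. Col3a1, a fibrillar collagen, averaged 11.24 ± 0.48 in the Myd88-/- group, against 12.32 ± 0.75 in the Myd88+/+ group (SD, n = 3 each), without overlap and at a limma adjusted p of 0.428. Plasma cell markers had scores from −0.36 to 0.05 in Myd88-/- and from −0.09 to 0.47 in Myd88+/+ glands. Of 6 measured, 4 were lower and 2 higher, 1 of them lower at an unadjusted p under 0.05 and 0 without overlap. Jchain averaged 7.53 ± 1.53 in the Myd88-/- group, against 9.72 ± 1.82 in the Myd88+/+ group (SD, n = 3 each), with overlapping groups. Xbp1 and Derl3 had differences of −0.12 and 0.02. Of 10 markers of other tissues 5 were lower and 5 higher, 1 in each direction at an unadjusted p under 0.05, with a median difference of 0.01. The muscle creatine kinase Ckm averaged 6.73 ± 0.18 in the Myd88-/- group, against 7.39 ± 0.16 in the Myd88+/+ group (SD, n = 3 each), without overlap, while the muscle myosin Myh4, below the background control median in both groups, had 0.52 and lay higher in each Myd88-/- gland than in each Myd88+/+ gland. The Myd88-/- mean of Ckm also lay under the brightest background control probe set, at 6.83.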
